A study of Mus musculus with 6 samples.

Results

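Parvalbumin (Pvalb), calbindin (Calb1) and calretinin (Calb2), the cytosolic calcium buffers used to tell cortical interneuron classes apart, were followed in mouse cortex between 6 and 16 months of age together with 6 related neuronal calcium-binding genes. The other members were Hpca, Hpcal4, Ncald, Cabp1, Necab1 and Necab2, so that the set held 9 of the 38355 genes listed in the count tables. They were taken by name after Ensembl identifiers had been matched to mouse gene symbols. All 9 passed the filter on low counts.

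Whole cortical hemispheres of C57BL/6 mice were dissected, and their polyadenylated RNA was sequenced. The groups were 6 months old mice (n = 3 brains) and 16 months old mice (n = 3 brains), with no transgene or treatment in either. The age labels and the study give 6 months for the younger group, whereas the housing notes in the labels give 3 months.

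Proteins of the EF-hand family bind calcium in short loops. Buffers such as parvalbumin, calbindin and calretinin mainly take up calcium ions and so shape the size and duration of calcium signals, whereas sensors such as hippocalcin change their conformation and act on partner proteins. In the cortex parvalbumin marks fast-spiking basket and chandelier cells, calretinin marks bipolar interneurons, many of which also make vasoactive intestinal peptide, and calbindin is found in somatostatin cells and in pyramidal neurons of the upper layers.

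Each library held between 29797253 and 46519280 counts on genes. In a model of all 17120 tested genes, 286 genes passed an adjusted p of 0.05 between the ages (edgeR's quasi-likelihood test), and these are called changed in what follows. The biological coefficient of variation was 6.40%, an estimate shared by both ages, and the intervals and calls assume equal spread. Pairs of samples of the same age differed more at 16 months. Their chi-square of counts per degree of freedom was 2.73 to 4.43 at 6 months and 8.47 to 27.6 at 16 months. Libraries of the older mice differed in how their levels followed base composition: the deviation of genes from their mean over the age correlated with GC content across genes at r = 0.588 in 16 months replicate 1, at -0.582 in replicate 2 and at -0.0545 in replicate 3. In the 6 months samples the same correlation lay between -0.130 and 0.160. All 13 markers of excitatory cortical neurons were measured. None was called by edgeR or by DESeq2's Wald test, 2 had an unadjusted p under 0.05, and 2 were called after correction for GC content and gene length, a fit that called 14.2% of all genes. They had a summed level of 5083 to 5334 CPM (counts per 1000000, after normalization) at 6 months and 5290.0 to 5944 CPM at 16 months.

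Of the 9 members, 2 changed with age, beside 1.67% of all tested genes. Pvalb fell and Calb2 rose, where 0.888% of all genes were called lower and 0.783% higher at 16 months. The samples of the 2 ages did not overlap for 4 members, which were Pvalb, Calb2, Hpca and Hpcal4, beside 23.7% of all genes. The median log2 fold change of the 9 members was 0.0907, beside 0.0014 for all tested genes, and 6 of the 9 values were above 0. For these 4 genes the exact two-sided permutation test gave p = 0.1 each, which is the smallest value that 3 samples against 3 can give.

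**Figure D1:**
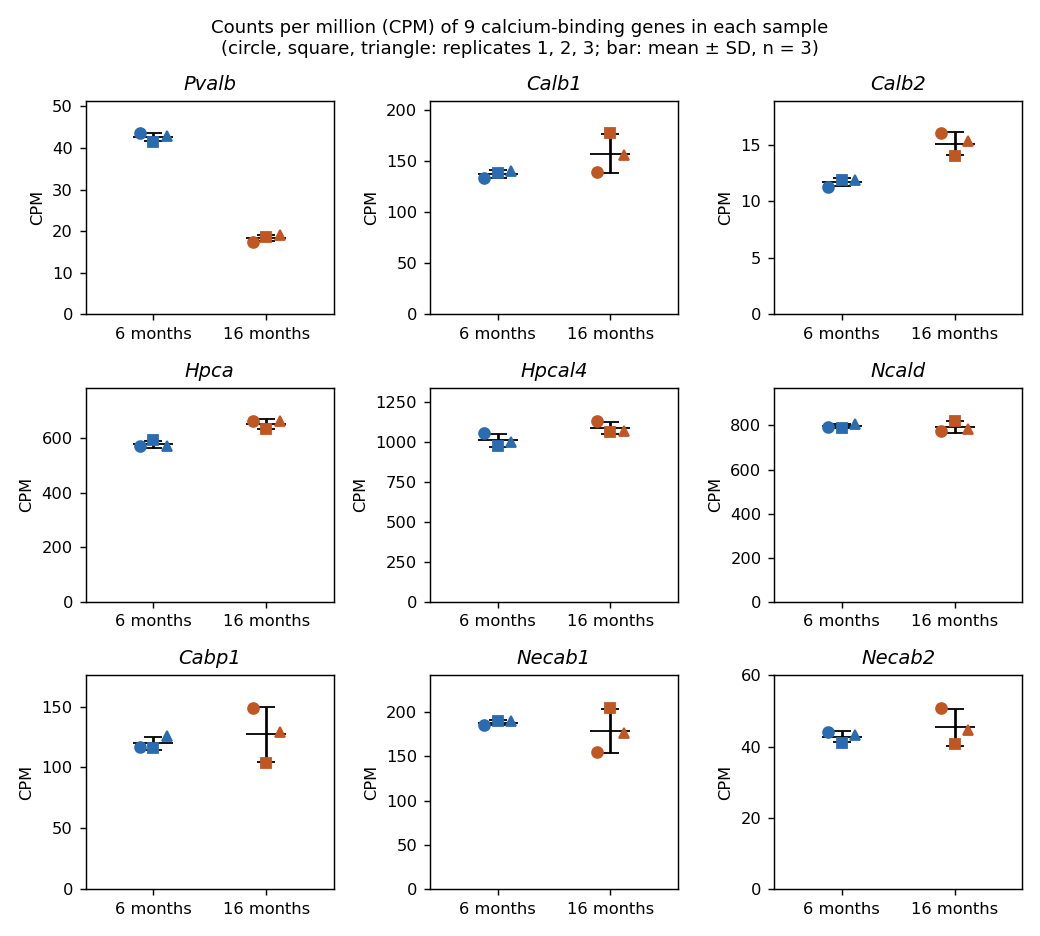
Level of each of the 9 genes in every sample, in CPM on an axis of its own for each gene, with 6 months and 16 months samples as points (circle, square and triangle for replicates 1, 2 and 3) and bars for the mean and SD of each age (n = 3). Pvalb lay between 41.5 and 43.5 CPM at 6 months and between 17.5 and 19.0 CPM at 16 months, and Calb2 between 11.3 and 11.9 CPM and between 14.0 and 16.0 CPM.

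Pvalb, which encodes the slow buffer of fast-spiking cells, lies at chr15:78191114-78206400 on the minus strand (GRCm38), with 5 exon blocks. Its level was 43.5, 41.5 and 42.8 CPM in the 6 months samples and 17.5, 18.7 and 19.0 CPM in the 16 months samples. Each older sample was lower than each younger one, and the replicates of an age lay close together, with a coefficient of variation of 2.41% at 6 months and 4.14% at 16 months. The mean went from 42.6 ± 1.03 CPM (SD, n = 3) to 18.4 ± 0.761 CPM (SD, n = 3), a log2 fold change of -1.21 with a 95% interval from -1.34 to -1.08 (adjusted p = 1.49e-05, edgeR's quasi-likelihood test). In a bulk sample, fewer cells of a type and less RNA per cell cannot be told apart. Other genes that mark PV interneurons were read beside it. Of 18 such genes without Pvalb, among them the potassium channels Kcnc1 and Kcnc2, 0 were called by edgeR, 3 had an unadjusted p under 0.05, and DESeq2's Wald test also called 0. The replicate block called 1, Tac1 (lower). The fit without 16 months replicate 2 called 3, which were Tac1, Akr1c18 and Acan, 2 lower and 1 higher. The fit with correction for GC content and length also called 3, with Tac1 lower and the matrix genes Hapln1 and Acan higher. These last 2 fits called 12.7% and 14.2% of all genes. The 18 genes had a median log2 fold change of 0.0036. Their summed level was 1496 to 1522 CPM at 6 months and 1509 to 1534 CPM at 16 months. Cplx1 alone had 596 and 612 CPM, so this sum says little about the less abundant genes. Those with an unadjusted p under 0.05 were Tac1 (-0.23) and Cox6a2 (-0.27), both lower, and Acan (0.35), higher. Across the list, 10 values were above 0 and 8 below.

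Calb2 lies at chr8:110137502-110168210 on the minus strand, with 12 exon blocks. It was the least abundant member, counted with 357 to 531 reads per sample. Its level was 11.3, 11.9 and 11.9 CPM at 6 months and 16.0, 14.0 and 15.3 CPM at 16 months. The older samples were all higher, and they were spread more widely than the younger ones. Calb2 rose by 29.2%, from 11.7 ± 0.329 CPM (SD, n = 3) to 15.1 ± 1.01 CPM (SD, n = 3), a log2 fold change of 0.37 with a 95% interval from 0.21 to 0.53 (adjusted p = 0.0348, edgeR). The call was lost when any 1 of the 6 months samples or 16 months replicate 3 was left out, with log2 fold changes of 0.34, 0.38, 0.38 and 0.36 and adjusted p between 0.152 and 0.192. In these 4 fits 0.318%, 0.328%, 0.277% and 0.335% of all genes were called, and Pvalb was then the only member called.

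Calretinin is also abundant in thalamic midline neurons, in hippocampal mossy cells and in the olfactory bulb, and markers of these regions were read in the same samples. The lists were chosen with earlier results of these data known, so counts of called genes in them are a description only. Of all tested genes, 0.783% were called higher. Of the thalamus markers other than the members, 5 of 9 tested genes were called higher and 0 lower, and their summed level was 234 to 242 CPM at 6 months and 245 to 281 CPM at 16 months. Only 2 of them, Prkcd and Shox2, were called when any 1 of the 6 months samples or 16 months replicate 3 was left out. Prkcd, a protein kinase of thalamic relay neurons, went from 13.1 to 24.6 CPM, a log2 fold change of 0.91 (adjusted p = 2.06e-04, edgeR). The transcription factor gene Shox2 was counted with at least 4 reads in every sample and went from 0.105 to 1.74 CPM (adjusted p = 1.51e-04). Gbx2, a defining thalamic gene, had 2 to 5 reads per sample and was not tested. Of the hippocampus markers other than the members, 4 of 9 were called higher and 0 lower, with a summed level of 332 to 350.1 CPM at 6 months and 426 to 462 CPM at 16 months. Of the 9 hippocampus genes, 2, Dsp and Lct, were called in the 4 fits just named. Without 16 months replicate 1, and also with the GC and length correction, 6 were called. These fits called 5.73% and 14.2% of all genes. Dsp, a desmosome gene of dentate granule cells, went from 3.52 to 8.42 CPM (adjusted p = 6.74e-04, edgeR). Of the olfactory bulb markers other than Calb2, 3 were tested and 0 were called by edgeR or by DESeq2's Wald test, 1 had an unadjusted p under 0.05 and was called with the GC and length correction, and their summed level was 5.70 to 6.74 CPM at 6 months and 7.21 to 8.20 CPM at 16 months. The olfactory bulb genes Eomes and Tbx21 were at 0 to 6 reads and were not tested. The part of these regions in the result for Calb2 was not tested.

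VIP and CCK interneurons were read from a list of their own, which is not a list of calretinin cells. Of 12 genes of VIP and CCK interneurons, 1 was called, which was Penk, an opioid peptide precursor that is also on the striatum list (119 to 141 CPM, log2 fold change 0.25, adjusted p = 0.0404, edgeR). The call for Penk was lost with upper quartile normalization and when any 1 of the 6 months samples or 16 months replicate 3 was left out. With the GC and length correction, which called 14.2% of all genes, 3 genes of the list were called, all higher. With this correction and the replicate block (19.4% of all genes) 3 were called higher and 2 lower. Without 16 months replicate 2 (12.7% of all genes) 2 were called, Vip and Penk, 1 higher and 1 lower. Of the 12 values, 5 were above 0 and 7 below. Vip was at -0.12 (adjusted p = 0.414, edgeR). Htr3a was at -0.27 (adjusted p = 0.185, edgeR), and its ages did not overlap. The 12 genes had a summed level of 821 to 836 CPM at 6 months and 832 to 856 CPM at 16 months. Much of it came from Cnr1 (257 and 240.1 CPM) and Cck (208 and 221 CPM). The 9 striatum genes had 2 calls, Penk and the phosphodiesterase gene Pde10a, both higher. Both calls were lost when any 1 of the 6 months samples or 16 months replicate 3 was left out. The striatum genes had summed levels of 798 to 816 CPM at 6 months and 905 to 917 CPM at 16 months. Their part in the values of Calb1, which striatal projection neurons express, was not tested.

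Calb1 encodes the fast buffer of somatostatin cells, upper-layer pyramidal neurons, dentate granule cells and striatal projection neurons, and lies at chr4:15881264-15908064 on the plus strand, with 10 exon blocks. Its level was 133, 138 and 140.2 CPM at 6 months and 139, 177 and 156 CPM at 16 months. The ages overlapped, since the lowest older sample was within the range of the younger ones. The means were 137 ± 3.75 CPM and 157 ± 19.1 CPM (SD, n = 3 each), and the log2 fold change of 0.20 had a 95% interval from 0.0186 to 0.38 (adjusted p = 0.242, edgeR). Calb1 was called higher in 3 of 15 alternatives: without 16 months replicate 1 (0.28, adjusted p = 0.00757), after correction for GC content and gene length (0.29, adjusted p = 2.41e-05), and with this correction and a replicate block (0.29). In those fits 5.73%, 14.2% and 19.4% of all genes were called. The hippocampus list given for Calb2 applies here as well, and its part in the values of Calb1 was not tested. Of 10 genes of SST interneurons, 0 were called by edgeR and by DESeq2's Wald test, with 3 at an unadjusted p under 0.05 and a summed level of 316 to 325 CPM at 6 months and 314 to 339 CPM at 16 months. With the GC and length correction 4 of them were called, 2 in each direction, and 1 and 2 were called without 16 months replicate 1 and replicate 2. The 10 pan-GABAergic genes, which include the glutamate decarboxylases Gad1 and Gad2, also had 0 calls by edgeR and by DESeq2's Wald test, with 3 at an unadjusted p under 0.05, and summed levels of 1158 to 1196 CPM and 1288 to 1309 CPM that did not overlap. With the GC and length correction 5 of these 10 genes were called, 4 higher, among them Gad1 and Gad2, and 1 lower (Dlx1). The replicate block called 1, and the fits without 16 months replicate 1 and replicate 2 called 2 and 3. In the same order, these fits called 4.57%, 5.73% and 12.7% of all genes.

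The coding sequences of the EF-hand loops are given for the pairs of loops from different members with at least 28 identical bases. Only the closest pairs are shown, so they do not measure how near whole members are to each other. The loops were found with the PROSITE EF-hand signature in the translated transcripts of GENCODE M21 on GRCm38, and the capitals mark the codons of the first, the third, the fifth and the last residue of the loop, whose side chains bind calcium.
Pvalb loop 1: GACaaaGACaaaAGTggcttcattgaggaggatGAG
Calb2 loop 3: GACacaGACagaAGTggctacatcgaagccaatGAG
Calb2 loop 1: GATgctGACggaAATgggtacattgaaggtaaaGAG
Calb1 loop 1: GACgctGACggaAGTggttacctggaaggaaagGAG
Hpca loop 1: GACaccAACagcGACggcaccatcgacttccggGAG
Hpcal4 loop 1: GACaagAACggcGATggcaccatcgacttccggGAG
Hpca loop 2: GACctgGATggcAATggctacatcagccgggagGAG
Ncald loop 2: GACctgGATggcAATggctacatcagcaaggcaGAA
Hpca loop 3: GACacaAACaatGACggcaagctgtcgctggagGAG
Necab1 loop 1: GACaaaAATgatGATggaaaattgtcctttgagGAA
Necab2 loop 1: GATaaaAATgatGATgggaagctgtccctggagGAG
The signature was matched by 2 loops in Pvalb, 4 in Calb1, 5 in Calb2, 3 each in Hpca, Hpcal4, Ncald and Cabp1, 1 in Necab1 and 2 in Necab2. Of the 36 bases of a loop, 28 were identical between Pvalb loop 1 and Calb2 loop 3, 29 between the first loops of Calb1 and Calb2, 32 between the first loops of Hpca and Hpcal4, 31 between the second loops of Hpca and Ncald, 29 between Hpca loop 3 and Necab2 loop 1, and 29 between the first loops of Necab1 and Necab2. Over whole transcripts, Pvalb, Calb1, Calb2, Hpca, Hpcal4, Cabp1 and Necab2 had no other gene with 97% identity over at least 100 bases, and the matches of Ncald and Necab1 were to genes that overlap them.

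The ratio of 2 members within a sample does not depend on the depth of that sample. Pvalb had 0.327, 0.300 and 0.306 reads for every read of Calb1 at 6 months, and 0.126, 0.105 and 0.121 at 16 months. The ranges lay far apart, and the log2 ratio differed by -1.40 (SE 0.0876). Relative to Calb2, Pvalb had 3.84, 3.49 and 3.60 reads at 6 months and 1.10, 1.33 and 1.24 reads at 16 months, a difference of -1.57 (SE 0.0916) on the log2 scale. Reads of Pvalb therefore still outnumbered those of Calb2 in every older sample. The ratio of Calb1 to Calb2 was 11.7, 11.6 and 11.8 at 6 months and 8.69, 12.6 and 10.2 at 16 months, and these values overlapped (difference -0.17, SE 0.156, exact permutation p = 0.4).

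**Figure D2:**
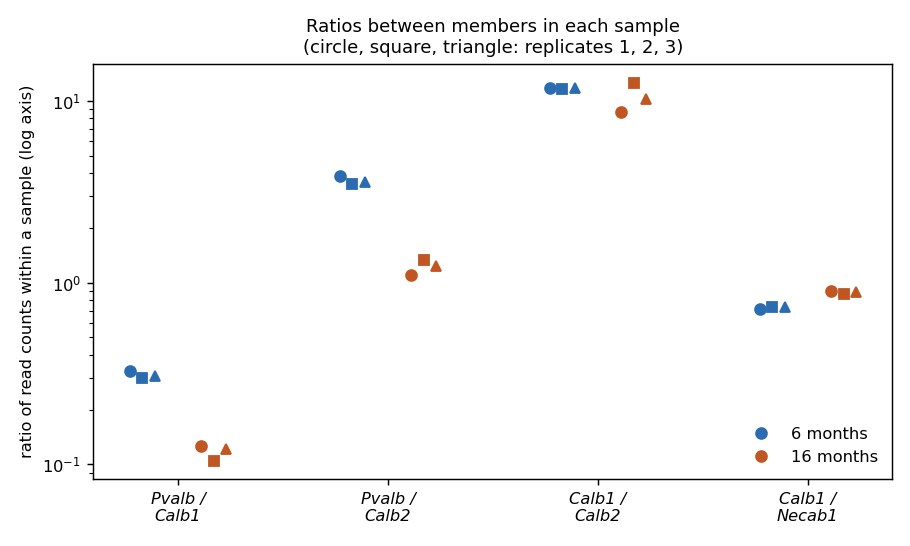
Ratios of reads between the buffers in each sample, on a log axis, for 6 months and 16 months samples as points (circle, square and triangle for replicates 1, 2 and 3). Both ratios that hold Pvalb lay apart between the ages, with Pvalb over Calb1 at 0.300 to 0.327 and at 0.105 to 0.126, whereas Calb1 over Calb2 overlapped at 11.6 to 11.8 and 8.69 to 12.6, and Calb1 over Necab1 lay at 0.720 to 0.738 and 0.862 to 0.897.

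Among all 36 pairs of members, the ratio did not overlap between the ages in 17, which were 8 of the 8 pairs with Pvalb and 9 of the 28 pairs without it. Over all pairs of tested genes, 23.5% did not overlap. Each of these 17 pairs had an exact permutation p of 0.1, two-sided, the smallest possible here, or 0.212 after Benjamini-Hochberg adjustment over the 36 pairs. Pairs that share a member are not independent of each other. Those with Pvalb largely repeat its own fall, and those with Calb2 its own rise. The ratios that held Calb2 gave 6 of the 9 pairs without Pvalb, with log2 differences from 0.19 relative to Hpca to 0.45 relative to Necab1. Calb1 over Necab1 was the ratio with the smallest error of its difference, at 0.720, 0.730 and 0.738 at 6 months and 0.897, 0.862 and 0.886 at 16 months (difference 0.27, SE 0.0197). Both genes lie on chromosome 4, Necab1 at chr4:14952245-15149794 on the minus strand, and they had the lowest GC content of the members, 36.8% for Calb1 and 39.5% for Necab1. From the mean of their age they deviated alike, by -0.17 and -0.20 in 16 months replicate 1 and by 0.18 and 0.21 in replicate 2. Shared deviations cancel in a ratio. Whether position or base composition had a part in this ratio was not tested.

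Counted per kilobase of exon, Pvalb moved down in the order of the members. At 6 months Hpca (198 CPM per kb) and Hpcal4 (189) led, with overlapping samples, followed by Ncald (92.7), Pvalb (40.9), Necab1 (35.9), Calb1 (28.3), Cabp1 (20.5), Necab2 (20.4) and Calb2 (6.72). Cabp1 and Necab2 overlapped, and the other neighbours in this order did not. At 16 months Pvalb was at 17.7 CPM per kb and had gone from place 4 to place 8, below Necab1 (34.2), Calb1 (32.5), Cabp1 (21.8) and Necab2 (21.7) and above Calb2 (8.66). Hpca (224), Hpcal4 (204) and Ncald (92.4) kept the first places. The samples of Necab1 and Calb1 overlapped, and so did those of Cabp1 and Necab2. Pvalb, at 16.8 to 18.2 CPM per kb, also overlapped Cabp1, at 17.8 to 25.6.

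The neuronal calcium sensors were the most abundant members, and none of the 3 was called. Hippocalcin (Hpca, chr4:129111570-129122036, minus strand), a sensor of pyramidal neurons that moves to membranes when calcium rises, was at 570.0, 593 and 573 CPM at 6 months and at 665, 633 and 664 CPM at 16 months. All older samples were above all younger ones, with means of 579 ± 12.3 CPM and 654 ± 18.3 CPM (SD, n = 3 each). The log2 fold change of 0.18 (95% interval 0.0682 to 0.29) missed the threshold at an adjusted p of 0.104 by edgeR's quasi-likelihood test. It passed in 5 of 15 alternatives, among them DESeq2's Wald test (0.18, adjusted p = 0.0470), the GC and length correction (0.15, adjusted p = 0.0278), and the fits without 16 months replicate 1 (0.16, adjusted p = 0.0486) or replicate 2 (0.20, adjusted p = 0.0157). DESeq2's test called 2.67% of all genes, and the fit without replicate 2 called 12.7%. Hpca is also on the hippocampus list, whose other genes are given above, and their part in this value was not tested. An overlap of 57 exon bases, 1.95% of its exons, is shared with Tmem54 on the opposite strand.

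Hpcal4 (chr4:123183227-123194701, plus strand), a visinin-like sensor, was at 1057, 975 and 1001 CPM at 6 months and at 1135, 1063 and 1072 CPM at 16 months. The ages did not overlap, but the lowest older and the highest younger sample were close. The log2 fold change was 0.11 (95% interval -0.0102 to 0.23, adjusted p = 0.329, edgeR). Neurocalcin delta (Ncald, chr15:37366175-37792570, minus strand) was at 791, 790.2 and 806 CPM at 6 months and at 774, 822 and 782 CPM at 16 months. The older samples lay around the younger ones. The log2 fold change of Ncald was -0.0047, and its 95% interval from -0.11 to 0.10 was the narrowest of the 9. Ncald shares 347 exon bases, 4.04% of its exons, with the antisense gene Gm28221 and 286 bases, 3.33%, with Gm49397.

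**Figure D3:**
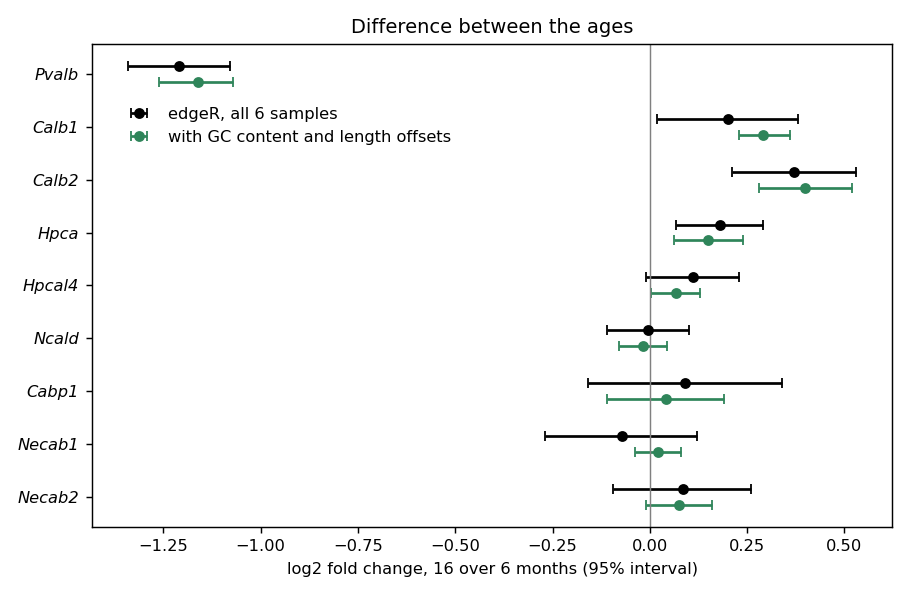
Log2 fold change of each of the 9 genes, 16 months over 6 months, as a point with its 95% interval, with a line at 0. Black stands for the fit of the text and green for the fit with offsets for GC content and length, and in black the interval of Pvalb ran from -1.34 to -1.08 and that of Calb2 from 0.21 to 0.53, and those of Hpcal4, Ncald, Cabp1, Necab1 and Necab2 included 0.

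Cabp1, Necab1 and Necab2 were widely spread among the older samples, as was Calb1, and gave no call. Cabp1 (chr5:115168689-115194381, minus strand), a calmodulin-like regulator of voltage-gated calcium channels and inositol trisphosphate receptors, was at 117, 116 and 126 CPM at 6 months and at 149, 104 and 129 CPM at 16 months. The older samples lay on both sides of the younger ones, with a coefficient of variation of 18.1% against 4.67%. Its log2 fold change was 0.0907 (95% interval -0.16 to 0.34, adjusted p = 0.720, edgeR). It was -0.0404 without 16 months replicate 1 and, as the only alternative in which Cabp1 was called, 0.22 without replicate 2 (adjusted p = 0.0474).

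The NECAB genes encode neuronal proteins with EF hands at the N terminus and, for NECAB2, partners among adenosine and glutamate receptors. Necab1 was at 185, 189.7 and 190.0 CPM at 6 months and at 155, 205 and 176 CPM at 16 months, with a log2 fold change of -0.0725 (95% interval -0.27 to 0.12, adjusted p = 0.720, edgeR). Necab2 (chr8:119446719-119472640, plus strand) was at 44.2, 41.0 and 43.3 CPM at 6 months and at 50.9, 40.7 and 44.7 CPM at 16 months, with a log2 fold change of 0.0842 (95% interval -0.0940 to 0.26, adjusted p = 0.636, edgeR). In 16 months replicate 1 Necab1 was at its lowest and Necab2 at its highest, and in replicate 2 the reverse. Necab1 shares 410 exon bases, 7.83% of its exons, with the antisense gene Gm11837, and without a stated strand setting reads there cannot be told apart.

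The spread of the older samples followed a common pattern over the members. In 16 months replicate 1, Calb1 and Necab1 were below the mean of their age by 0.17 and 0.20 on the log2 scale, whereas Cabp1, Necab2 and Calb2 were above it by 0.25, 0.17 and 0.0842. In replicate 2 the signs were turned around, with 0.18 for Calb1, 0.21 for Necab1, -0.28 for Cabp1, -0.15 for Necab2 and -0.11 for Calb2. Deviations of a gene within an age sum to 0, so the values of replicates 1 and 2 are not independent. In replicate 3 the values were from -0.0233 to 0.0459 over all 9 members, the highest being that of Pvalb, which was above both other replicates. By longest transcript, the GC content of Cabp1 was 52.7%, that of Calb2 53.5% and that of Necab2 63.6%. The size of the deviation did not follow this order. Hpca, at 57.8% GC, deviated by 0.0249 in replicate 1 and -0.0469 in replicate 2. Hpcal4, at 51.2%, deviated by 0.0595 and -0.0362. The part of base composition in the spread of single members was not tested. Pvalb, at 49.3% GC, deviated by -0.0681, 0.0222 and 0.0459, and its log2 fold change was between -1.24 and -1.16 in all 15 alternatives.

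**Figure D4:**
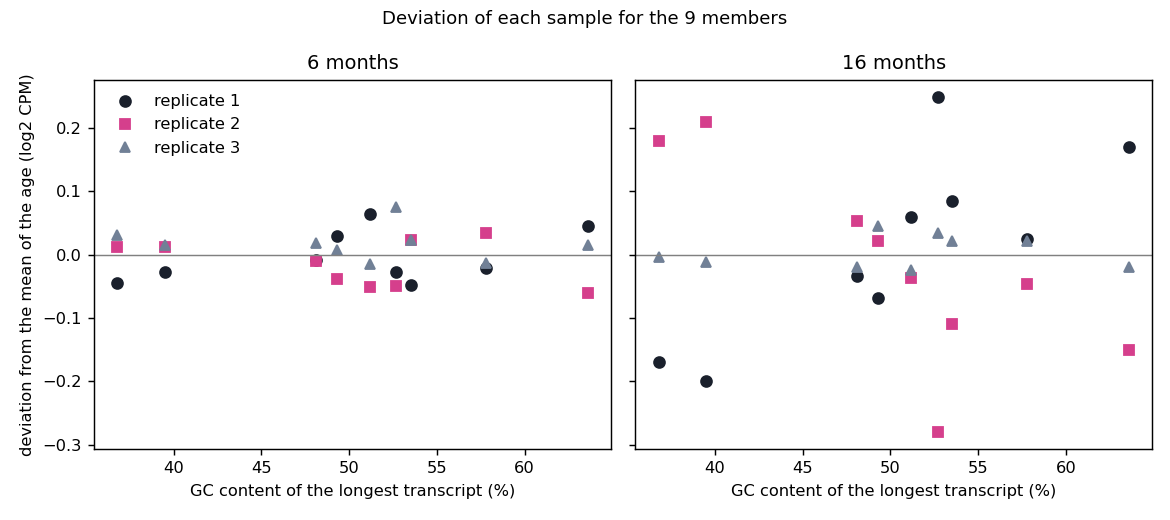
Deviation of each of the 9 genes from its mean over the samples of an age, in log2 CPM, against the GC content of its longest transcript in percent, with 1 panel for each age and a marker for each replicate. At 16 months replicates 1 and 2 lay on opposite sides of 0 for all 9 genes, with Calb1 (36.8% GC) at -0.17 and 0.18 and Necab2 (63.6% GC) at 0.17 and -0.15, and replicate 3 stayed near 0. Deviations of a gene within an age sum to 0, so the replicates are not independent.

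Other genes that handle calcium were read from 3 lists of 68 genes in all, 63 of which were tested and 3 called (4.76%, beside 1.67% of all tested genes). Of 21 tested EF-hand sensors other than the members, which include the calmodulins, 0 were called by edgeR or by DESeq2's Wald test, and 3 had an unadjusted p under 0.05. These were Hpcal1 (21.1 to 25.8 CPM, log2 fold change 0.29, adjusted p = 0.165), Calm2 (1316 to 1151 CPM, -0.19, adjusted p = 0.225) and Caln1 (0.12, adjusted p = 0.273). The replicate block called 2, Hpcal1 and Calm2, as did the fit without 16 months replicate 2. The GC and length correction called 3, which were Hpcal1, Calm2 and Kcnip4. In the same order, these fits called 4.57%, 12.7% and 14.2% of all genes. The list had a median of 0.0734, and 2 further members, Cabp2 and Cabp5, were not tested at 0 to 9 reads.

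Of 13 tested EF-hand buffers and S100 proteins, 1 was called. S100a16, a gene expressed in astrocytes among other cells, was at 65.1, 66.6 and 65.5 CPM at 6 months and at 56.9, 53.5 and 55.4 CPM at 16 months, and fell by 0.25 on the log2 scale (SE 0.0508, adjusted p = 0.0418, edgeR). The astrocyte gene S100b was at 186, 193 and 199.7 CPM and at 155, 166 and 166 CPM, with a log2 fold change of -0.25 that missed the threshold (adjusted p = 0.0549). S100a1 had a log2 fold change of -0.21 (adjusted p = 0.0994). The 8 tested S100 genes, singled out after their values were seen, all had values below 0 with a median of -0.22, and 6 of them did not overlap between the ages, beside 23.7% of all genes. All 8 also stayed below 0 under both other normalizations, and 7 did under the GC and length correction, where the median was -0.15. In 4 of the 6 fits that left out 1 sample, which were those without any 1 of the 6 months samples or without 16 months replicate 3, S100a16 was no longer called. The other 2 of these fits called 3 and 4 of the 13 genes, all lower, and the GC and length correction called S100b and S100a16. In the same order, these fits called 5.73%, 12.7% and 14.2% of all genes. S100g, S100a5 and S100z had 0 to 6 reads and were not tested. The astrocyte gene Gfap, an intermediate filament, fell in the same samples by 0.47 on the log2 scale (259 to 187 CPM, adjusted p = 0.00332, edgeR). The list of 7 astrocyte genes, which includes S100b, was split, with 4 values above 0 and 3 below. Those above 0 were Aldh1l1 (0.25), Slc1a3 (0.20), Slc1a2 (0.15) and Gja1 (0.22), each without overlap between the ages. None of these was called by edgeR. DESeq2's Wald test called 2 genes of the list higher and 2 lower. The 7 genes had a summed level of 5631 to 5959 CPM at 6 months and 5969 to 6725 CPM at 16 months. Slc1a2 alone had 4126 and 4594 CPM. The part of astrocytes in the S100 values was not tested.

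The list of calcium extrusion and stores, with 29 genes tested, had 2 called genes, both higher at 16 months. Slc24a3, a sodium, potassium and calcium exchanger of the plasma membrane, was at 94.7, 91.2 and 94.5 CPM and at 119, 108 and 112 CPM, and rose by 0.28 on the log2 scale (SE 0.0541, adjusted p = 0.0352, edgeR). Calreticulin (Calr), the main calcium-holding chaperone of the endoplasmic reticulum, was at 348, 352 and 347 CPM and at 398, 415 and 423 CPM, and rose by 0.24 (SE 0.0484, adjusted p = 0.0418). For both genes every older sample was above every younger one. Atp2a2, the calcium pump of the endoplasmic reticulum, had a log2 fold change of 0.18 and missed the threshold (adjusted p = 0.0914). The list had 21 values above 0 and a median of 0.0907. Slc24a3 and Calr were not called when any 1 of the 6 months samples or 16 months replicate 3 was left out, where 0 genes of the list were called. Calr was also lost with upper quartile normalization (0.22, adjusted p = 0.0539) and, just above the threshold, with the robust fit. Other alternatives called more of the 29 genes: 10 with the GC and length correction (8 higher, 2 lower), 15 with the correction and the block (12 higher, 3 lower), 6 without 16 months replicate 1 and 8 without replicate 2. In the same order, these fits called 14.2%, 19.4%, 5.73% and 12.7% of all genes.

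**Figure D5:**
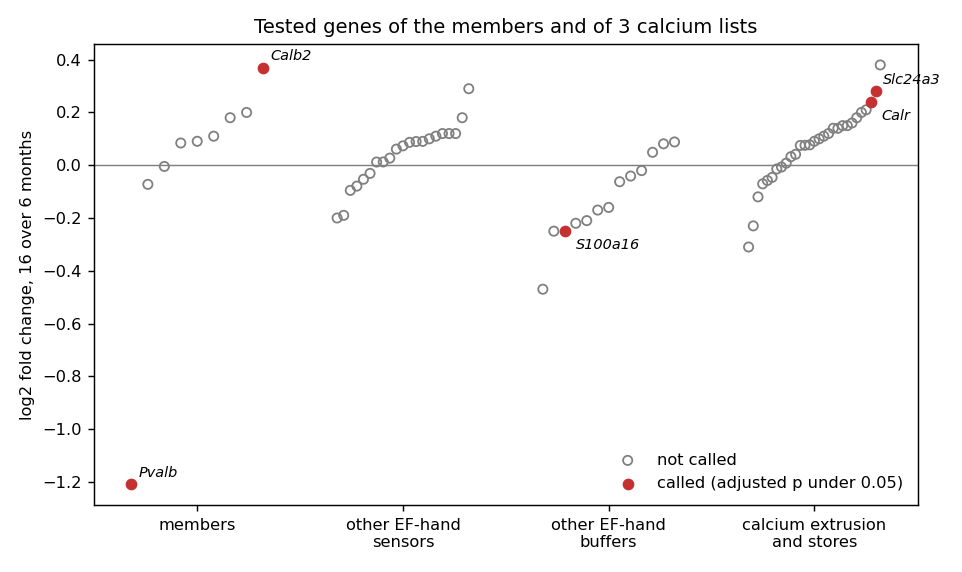
Log2 fold change, 16 months over 6 months, of each tested gene in the 3 calcium lists and of the 9 genes described here, 1 point per gene, with called genes as filled red points with their names and the others as open circles. Pvalb at -1.21 lay far below every other point, the called S100a16 lay at -0.25, and the called Slc24a3 and Calr lay at 0.28 and 0.24.

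Genes whose pattern over the 6 samples was most like that of a buffer were read from 10804 genes with a mean of at least 8 CPM, by Pearson's r of log2 CPM, as a description only. The 3 closest to Pvalb were Plcxd3 (r = 0.9984), Arhgef12 (r = 0.9951) and the host gene Mir124a-1hg (r = 0.9947), with log2 fold changes of -0.37, -0.31 and -0.21. Arhgef12 was at 296, 300.3 and 300.3 CPM at 6 months and at 239.6, 245 and 239.8 CPM at 16 months. The pattern was thus like that of Pvalb in shape and much smaller in size. The 3 closest to Calb1 were Rtn3 (r = 0.9993), Wdr36 (r = 0.9993) and Rgs4 (r = 0.9975), and none of them was called. The 3 closest to Calb2 were Slc25a33 (r = 0.9953), Parp1 (r = 0.9940) and Gm26672 (r = 0.9930), with log2 fold changes of 0.23, 0.15 and 0.27 and adjusted p of 0.0784, 0.156 and 0.0784 by edgeR.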

How the data were processed

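PolyA RNA of 6 cortical samples was sequenced as paired reads. The authors aligned reads to mm10 with STAR and deposited raw counts per Ensembl gene, without normalization. The study's methods name HTSeq, and the files end with its summary lines, whereas the submitters' processing notes name CASAVA, STAR and featureCounts. The Ensembl release and strand setting are not given in the sources used here. Summary lines were left out of totals and tests.

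Of 38355 genes, 36602 were matched to GENCODE M21 (GRCm38). In R 4.3.3, edgeR 4.0.16 was used for TMM normalization, filterByExpr on the ages, the quasi-likelihood test and Benjamini-Hochberg adjustment over the 17120 tested genes at 0.05, without covariates. CPM are after TMM, and log2 CPM used a prior count of 2. Permutation tests were exact and two-sided. The method was tested on simulated data, in which samples did not deviate with GC content as the older samples did here. Sequence copies were searched with blastn 2.17.0. GC content and length were corrected by offsets from medians over 20 bins. Replicates were different brains. The members and the lists were chosen with earlier results of these data known. Named genes were the 9 members, the 3 genes most like each buffer, the called genes of the calcium lists or their 3 smallest p, and, of marker lists, members beside their result. The alternatives included DESeq2 1.42.0, other normalizations and filters, a robust fit, the block, the offsets and each sample left out. Figures were drawn with matplotlib 3.10.9.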

Additional observations from a re-analysis of the deposited data

How the results depend on the processing

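Pvalb was called lower in all 15 alternatives. Calb2 was called in 11 of 15. The number of called genes was 286, and it was 648 without the filter on low counts, 470 with DESeq2's Wald test, 2425 with the GC and length offsets, 3321 with the offsets and a replicate block, and 48 to 2211 with 1 sample left out. Of the 9 members, 4 were called with the offsets, 5 with offsets and block, and 1 to 4 with 1 sample left out. Calb1 was called with the offsets (0.29), with offsets and block (0.29) and without 16 months replicate 1 (0.11 to 0.28 with 1 sample left out). Calb2 lay at 0.33 to 0.42 with 1 sample left out. Hpca was called with DESeq2 (0.18), with the offsets (0.15), with offsets and block (0.15), and without 16 months replicate 1 or 2 (0.16 and 0.20). Hpcal4 was called with offsets and block (0.0679). Values around 0 changed sign: Necab1 with the offsets (0.0213), with offsets and block (0.0214) and without 16 months replicate 1 (0.0205), Necab2 without that sample (-0.0066), Cabp1 without it (-0.0404, and 0.22 without replicate 2), and Ncald without 6 months replicate 3 (0.0048), 16 months replicate 1 (0.0120) or 16 months replicate 3 (0.0052). With 1 sample left out, Ncald lay between -0.0317 and 0.0120, Necab1 between -0.18 and 0.0205. The cause was not tested. Between the ages, the log2 ratio of Pvalb to Calb1 differed by -1.45 to -1.33 over 10 alternatives. Relative to Calb2 it differed by -1.64 to -1.50, also over 10. Among these alternatives, values per kilobase and differences of same-numbered samples cannot move the difference between the ages.

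Replicate numbers do not mark shared animals. Deviations of same-numbered samples correlated at 0.180, 0.0958 and 0.0351, and 16 months replicate 3 correlated slightly better with 6 months replicate 2 (0.0379). The block on these numbers gave 783 called genes, and Pvalb and Calb2 were again the 2 members called.

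Groups of 3 were not searched for outlying samples. With 3 brains an age, p-values of the permutation tests cannot pass 0.05.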

Other observations

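Glial and vascular lists gave further values for the same samples. The 6 oligodendrocyte genes had 0 calls by edgeR, 2 at an unadjusted p under 0.05 and 1 call by DESeq2's Wald test. With the GC and length correction, which called 14.2% of all genes, 4 were called. Of 6 microglia genes, Aif1, a calcium-binding EF-hand protein of microglia, fell by 0.43 on the log2 scale (7.34 to 5.43 CPM, adjusted p = 0.0418, edgeR). The list was split, with 3 values above and 3 below 0 and a summed level of 346 to 357 CPM at 6 months and 357 to 366 CPM at 16 months. Csf1r, a growth factor receptor of microglia, went from 99.2 to 118 CPM (log2 fold change 0.25, adjusted p = 0.0926) and was called by DESeq2's Wald test and with the replicate block. Of 6 endothelial genes Kdr, a receptor of vascular growth factor, fell by 0.39 (10.4 to 7.91 CPM, adjusted p = 0.0231, edgeR). The calls for Aif1 and Kdr were lost when any 1 of the 6 months samples or 16 months replicate 3 was left out. The 3 tested cerebellum genes other than the members had 0 calls and a summed level of 8.40 to 9.27 CPM at 6 months and 9.54 to 11.1 CPM at 16 months, and the granule cell gene Gabra6 had at most 3 reads in a sample.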
